A study of Rattus norvegicus with 63 samples.

Results

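The striatum was set against the prefrontal cortex (PFC) in rats that had received only saline. All 16 saline control arrays of the series were used, of 63 arrays in all: 8 of striatum and 8 of PFC. The arrays were taken by their labels, and no measured value decided which ones entered. The striatum samples were the rostral caudate putamen together with the nucleus accumbens, so dorsal and ventral striatum cannot be told apart here. The animals were male Wistar rats, 4 weeks old on arrival and 6 weeks old when injections began, and the study as a whole asked how amphetamine-type stimulants change expression in both regions after self-administration. The naive cohort gave 5 arrays per region. Its rats were injected intraperitoneally with saline 2 times a day for 7 days. The other cohort, called pretreated because its stimulant groups had been given drug over those 7 days, gave 3 control arrays per region, labelled saline at that stage too. Controls of both cohorts were conditioned with saline in the place preference test and then had saline at 0.1 ml per infusion in the self-administration test, so every array here comes from an animal with that handling and no stimulant. The design text speaks both of single control rats and of RNA pools, so whether an array is 1 animal or a pool was not settled, and the p-values below measure the spread between arrays only.

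The striatum is built almost wholly of GABA-releasing medium spiny projection neurons, which receive dense dopamine, with a small number of cholinergic and GABAergic interneurons and with white matter bundles crossing the tissue. The PFC is a layered cortex in which glutamate-releasing pyramidal neurons predominate, alongside several classes of GABAergic interneuron. Both regions derive from the forebrain, striatum from the subpallium and cortical pyramidal neurons from the pallium, and each keeps a distinct set of transcription factors in adult life.

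Each array measured biotin-labelled RNA as a MAS5 signal per probe set, a linear intensity scaled to a common mean, and values below are log2 of that signal with the signal floored at 1. A difference is striatum minus PFC on that log2 scale, so 1 is a doubling. Trimmed mean signal was 500.2 on every saline array and median signal ran from 121.6 to 155.6. Replicate arrays of a group correlated at 0.94 to 0.956 over probe sets and arrays of different regions at 0.913 to 0.937. Naive arrays fell into sets by BioB, a bacterial RNA added as a hybridisation control: log2 BioB was 9.37 to 9.92 on arrays 1 to 3 of each region and 6.18 to 6.85 on arrays 4 and 5, against 9.29 to 9.81 in the pretreated cohort. Each set held both regions. Values on naive arrays 1 to 3 and on arrays 4 and 5 are given beside the genes described below that passed with at least a doubling and differed by over 1.5 times between these sets. The log2 ratio of 3' to 5' Gapdh probe sets was 0.528 to 0.574 in striatum and 0.251 to 0.369 in PFC on naive arrays 1 to 3, and the ranges of the regions overlapped in the other sets. On naive arrays 4 and 5 it was 1.141 to 1.156 in striatum and 1.022 to 1.199 in PFC. The same ratio for actin did not overlap there, at 3.541 to 3.803 in striatum and 3.852 to 4.3 in PFC, but did in the other sets. The haemoglobin gene Hbb was also lower on these arrays, at 9.48 to 10.54 in striatum and 9.22 to 10.19 in PFC. On naive arrays 1 to 3 it was 12.43 to 13.57 and 12.1 to 13.77. The part of these values in the results was not tested.

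The labelled tissue was checked against markers first. All 10 tested striatal projection neuron markers were higher in striatum, with a median difference of 3.589, and all 9 cortical projection neuron markers were lower. Their mean log2 signals were 12.08 to 12.46 on striatum arrays and 8.04 to 9.14 on PFC arrays for the striatal markers, and 6.98 to 8.12 and 10.15 to 10.59 for the cortical markers, with no overlap for either. The first naive striatum array carries a description that names PFC, but its title and tissue label say striatum and its markers were striatal. Pretreated PFC array 1 had the highest striatal marker mean among PFC arrays, 9.14, followed by naive PFC array 3 at 8.96. The fifth naive striatum array stood apart in markers of thalamus, described below. Without pretreated PFC array 1 the counts of genes higher and lower were 2233 and 1930, without naive PFC array 3 they were 2051 and 1922, and without the fifth naive striatum array 2119 and 1954, against 2190 and 1985 with all arrays.

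Of 8531 genes tested with the cohort as a block, 2190 were higher in striatum (25.7%) and 1985 were lower (23.3%), at a Benjamini-Hochberg adjusted p under 0.05 in limma, so 48.9% passed in one direction or the other. The median difference over all genes was 0.023. Differences of at least a doubling were seen in 474 genes (5.56%). In 1741 genes (20.4%) the arrays of the regions did not overlap within either cohort, 816 higher in striatum and 925 lower. Because about every other gene passed, a count of list members that pass is read below against these shares. In tissue RNA, fewer cells of a type and less RNA per cell cannot be told apart.

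Genes known from earlier results to lead this contrast were set aside when the genes described next were chosen. On the striatal side they included the adenosine receptor Adora2a (4.57 ± 0.21), the dopamine receptor Drd2 (4.52 ± 0.17), the transcription factor Dach1 (4.44 ± 0.13), the neurotensin precursor Nts (3.93 ± 0.27) and Rarb, described below with the retinoid genes (3.59 ± 0.13). On the cortical side they included the transcription factor Neurod6 (-3.9 ± 0.22), Tafa1 (-3.79 ± 0.17) and C1ql3 (-3.76 ± 0.23), both of secreted proteins, and the interneuron peptide Vip (-3.67 ± 0.22).

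Among the other genes whose arrays did not overlap within either cohort, Rasgrp2, Strip2, Gng7, Gnal and Rem2 had the largest differences on the striatal side. Rasgrp2, an exchange factor that activates Rap in response to calcium and diacylglycerol, was 11.47 to 12.1 on the striatum arrays (median 11.88) and 7.8 to 8.98 on the PFC arrays (median 8.1). The regions did not overlap, and the highest PFC value was that of pretreated array 1. The difference was 3.61 ± 0.13 (SE, 8 arrays per region; adjusted p = 2.39e-14). Another probe set of Rasgrp2 gave 1.04 ± 0.1, also passing, and the mean of its probe sets gave 2.33, so the size rests on the probe set used. Strip2, a striatin-interacting protein, was 10.6 to 11.44 in striatum and 6.92 to 7.87 in PFC, a difference of 3.54 ± 0.1. Rem2, a small GTPase that restrains voltage-gated calcium channels, differed by 3.37 ± 0.17. That the regions are apart within each cohort for these genes follows from how they were chosen.

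Other genes among the 15 with the largest excess in striatum had varied roles. Asic4, of the acid-sensing ion channel family, had one of the 5 smallest p-values (3.34 ± 0.09; adjusted p = 6.42e-16). Coch, a secreted extracellular matrix protein, differed by 3.14 ± 0.16, Patj, a scaffold of cell polarity and tight junctions, by 3.1 ± 0.14, and Synpo2, an actin-binding protein, by 2.62 ± 0.12. Cbr3, a carbonyl reductase, differed by 2.73 ± 0.16 and Tmem212 by 2.64 ± 0.17. Scn4b, the sodium channel beta subunit of medium spiny neurons, was 13.68 to 14.14 in striatum and 10.45 to 11.46 in PFC.

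On the cortical side, again with genes known from earlier results set aside, Neurod1 had the largest difference. Neurod1, a basic helix-loop-helix transcription factor of neuronal differentiation, was 5.07 to 7.71 in striatum (median 5.4) and 9.18 to 9.94 in PFC (median 9.47), a difference of -3.57 ± 0.31 (adjusted p = 6.58e-09). The regions did not overlap, and the highest striatum values, 7.71 and 6.9, were those of naive arrays 4 and 5, so that the difference was -4.11 on naive arrays 1 to 3 and -2.5 on naive arrays 4 and 5. Adcyap1, which encodes the peptide PACAP, was 4.34 to 6.87 in striatum and 8.77 to 9.46 in PFC, with a difference of -4.13 on naive arrays 1 to 3 and -2.74 on arrays 4 and 5. Kcnj6, a G protein-gated inward rectifier, was 5.95 to 7.74 against 9.65 to 10.26, with -3.96 and -2.58 on the same sets. Rprm, which encodes reprimo, was 7.1 to 9.29 against 10.78 to 11.22, a difference of -2.87 ± 0.23, with -3.55 and -2.36. Of the 166 genes in both directions that the rule for naming chose and that passed with at least a doubling, 18 differed by over 1.5 times more on naive arrays 1 to 3 than on arrays 4 and 5, 2 the other way, and 1, Nr4a2, changed sign (-1.65 and 0.07).

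Slc30a3, the transporter that loads zinc into glutamatergic vesicles, differed by -3.2 ± 0.27, Nrn1, a neurite-promoting surface protein, by -3.09 ± 0.21 and Hs3st2, a heparan sulfate sulfotransferase, by -2.75 ± 0.17. Ccn3, a secreted matricellular protein, Mfsd4a, a membrane transporter, and Sidt1 were lower by -3.17 ± 0.22, -3.26 ± 0.21 and -2.96 ± 0.15. Some of the smallest p-values belonged to smaller differences: beta-synuclein (Sncb) differed by -1.65 ± 0.06, the growth cone protein Basp1 by -1.8 ± 0.07, Ube2ql1, of the ubiquitin-conjugating enzyme family, by -2.08 ± 0.08 and Tagln3 by -1.62 ± 0.06, all among the 5 genes lower in striatum with the smallest p.

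**Figure D1:**
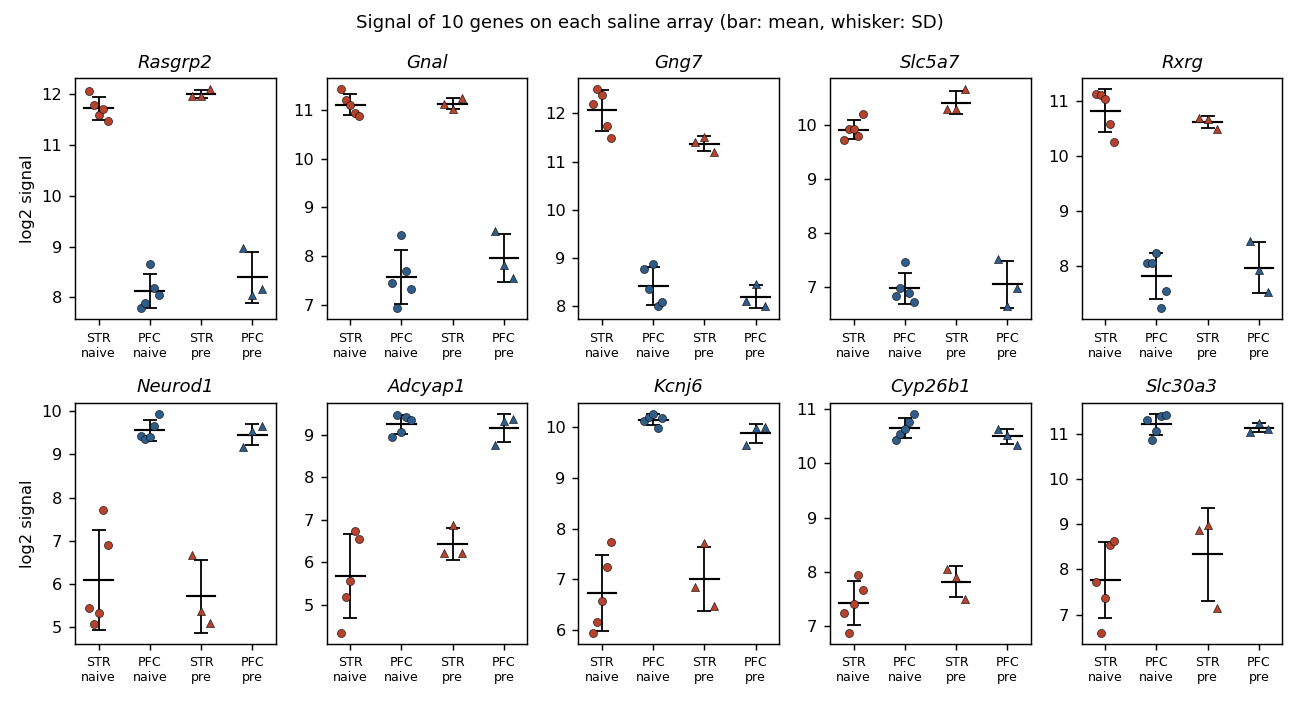
Log2 signal (vertical axis) of 10 genes on each saline array, with striatum (STR) in red and PFC in blue, naive arrays as circles and pretreated-cohort arrays (pre) as triangles; bars are group means and whiskers SDs. The genes were picked from those whose arrays do not overlap within either cohort, so the separation in each panel follows from that choice. Rasgrp2, for example, has 11.47 to 12.1 in striatum and 7.8 to 8.98 in PFC.

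The cyclic nucleotide cascade, which carries the signal of dopamine receptors, had more genes higher than lower: 18 of its 32 tested genes were higher, 9 were lower and 5 did not pass, and the median difference was 0.354 against 0.023 over all genes. Olfactory-type G alpha (Gnal), which couples dopamine and adenosine receptors to adenylyl cyclase, was 10.88 to 11.42 on the striatum arrays and 6.93 to 8.52 on the PFC arrays. Its partner Gng7, a G gamma subunit, was 11.2 to 12.5 and 8.01 to 8.88. The striatal cyclase Adcy5 (2.51 ± 0.08), the calcium-activated phosphodiesterase Pde1b (2.64 ± 0.09) and the guanylyl cyclase subunit Gucy1a1 (1.53 ± 0.09; 1.78 on naive arrays 1 to 3 and 1.18 on arrays 4 and 5) were higher too. Each of these kept the regions apart on every array.

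Within this cascade some families had members that passed in both directions. Of 20 families examined in all, 13 had such members, where about every other gene of all those tested passed. Adcy2 was lower in striatum by -1.03 ± 0.07 and Adcy6 by -0.75 ± 0.09, the reverse of Adcy5. Pde1a, a close relative of Pde1b, was 5.84 to 8.32 in striatum and 7.25 to 10.65 in PFC, a difference of -1.99 ± 0.3, although the arrays of the regions overlapped over both cohorts together. The regulatory kinase subunit Prkar1b was lower by -0.99 ± 0.06. Arpp21, a phosphoprotein regulated by cyclic AMP, depended on the probe set: the set with the higher mean signal gave 1.64 ± 0.06 and another gave -1.21 ± 0.07, both passing.

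Among 21 tested G protein subunits 10 were higher, 6 were lower and 5 did not pass. Gnas, the usual stimulatory alpha subunit and the counterpart of Gnal, was lower in striatum (12.8 to 13.14 against 13.45 to 13.82; -0.72 ± 0.06). Of 9 gamma subunits 5 were higher and 3 were lower. Beside Gng7 the higher ones were Gng8 (0.43 ± 0.17), Gng5 (0.36 ± 0.09), Gng11 (0.35 ± 0.1) and Gng10 (0.24 ± 0.06). Gng8 lost its call in 9 of the fits with 1 array left out and in 8 other settings, quantile normalisation among them. The lower ones were Gng13 (-1.05 ± 0.11), Gng2 (-0.99 ± 0.08) and Gng3 (-0.86 ± 0.08), though another probe set of Gng2 gave -0.12 ± 0.11 and did not pass. Of 12 RGS genes, which shut G protein signals off, 4 were higher and 4 were lower. The largest excess was that of Rgs9, at 4.31 to 4.53 as single arrays were left out. Rgs2 differed by 0.99 ± 0.08 and Rgs7 by -0.85 ± 0.09.

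**Figure D2:**
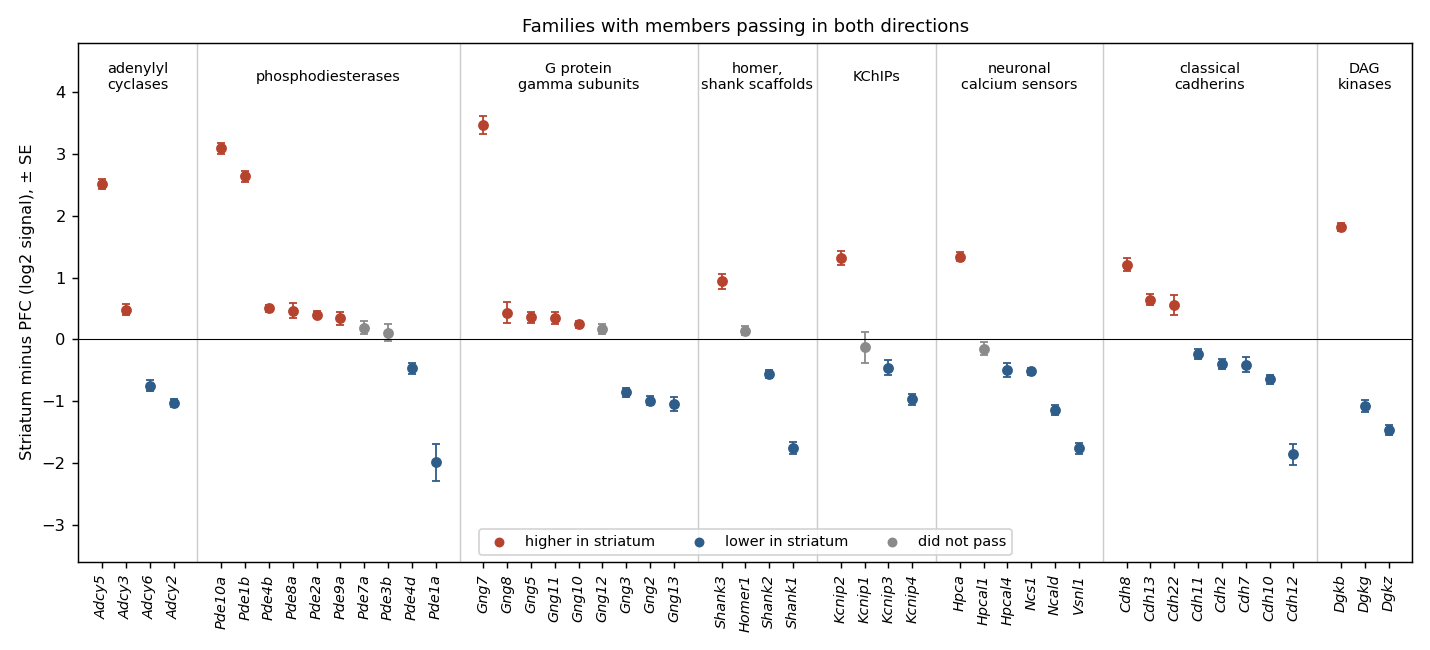
Difference striatum minus PFC (log2, vertical axis, ± SE from limma) of every tested member of 8 gene families, coloured by whether it passed at an adjusted p under 0.05. The 8 were picked from the 13 of 20 families with members passing both ways, so at least 1 member is higher and at least 1 lower in each, for example Gng7 at 3.47 and Gng13 at -1.05 among the G protein gamma subunits.

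Of 35 tested genes of small GTPase and diacylglycerol signalling 16 were higher, 9 were lower and 10 did not pass. Rasd2 (Rhes), a GTPase enriched in medium spiny neurons, differed by 2.58 ± 0.1, while its paralogue Rasd1 differed by -1.49 ± 0.18. The phosphatase Ptpn5 (STEP) was higher by 2.3 ± 0.09, the GTPase-activating protein Arhgap6 by 2.11 ± 0.13 and the exchange factor Vav3 by 1.91 ± 0.11. Diacylglycerol kinase Dgkb was higher by 1.82 ± 0.07, whereas Dgkg (-1.08 ± 0.1) and Dgkz (-1.47 ± 0.08) were lower.

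Of 43 tested genes of calcium handling 15 were higher, 19 were lower and 9 did not pass. The ryanodine receptor Ryr3, a calcium release channel of the endoplasmic reticulum, was 9.83 to 10.64 in striatum and 7.4 to 8.15 in PFC (2.48 ± 0.12), while Ryr2 was lower (-1.04 ± 0.1, and -0.52 ± 0.16 on another probe set). Hippocalcin (Hpca) was higher by 1.34 ± 0.08, but the related calcium sensors Vsnl1 (-1.76 ± 0.09), Ncald (-1.14 ± 0.08; -1.29 on naive arrays 1 to 3 and -0.81 on arrays 4 and 5) and Ncs1 (-0.52 ± 0.05) were lower. Other probe sets of Ncs1 gave -0.23 ± 0.18 and -0.16 ± 0.13 and did not pass. Necab2 was higher by 1.64 ± 0.13 and Necab3 lower by -2.48 ± 0.15. The kinase Prkch and the calmodulin-binding scaffold striatin (Strn) were higher by 2.11 ± 0.12 and 1.89 ± 0.08.

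In retinoid signalling, retinoic acid made from vitamin A activates nuclear receptors. Of 10 tested genes 7 were higher, 1 was lower and 2 did not pass, and the median difference was 0.781. Rarb, a retinoic acid receptor, was 11.92 to 12.55 on the striatum arrays and 8.15 to 9.47 on the PFC arrays. Its heterodimer partner Rxrg was 10.25 to 11.13 and 7.24 to 8.46. Neither overlapped between regions. The binding protein Crabp1 differed by 2.21 ± 0.21, the retinol carrier Rbp4 by 1.7 ± 0.13 and Rdh10, which takes the first step of retinoic acid synthesis, by 1.18 ± 0.08.

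The lower member was Cyp26b1, the enzyme that breaks retinoic acid down. It was 6.87 to 8.04 in striatum and 10.35 to 10.92 in PFC (-3.03 ± 0.14; adjusted p = 3.65e-13), with no overlap. The median of the retinoid list was 0.78, 0.8 and 0.76 in naive arrays 1 to 3, naive arrays 4 and 5 and the pretreated cohort. Thyroid hormone genes were mixed, with 2 of 9 higher and 4 lower: the receptor Thrb differed by -0.57 ± 0.06 (-0.32 ± 0.13 on another probe set, which did not pass) and the thyroid hormone-binding protein Crym by -0.45 ± 0.07. Of 15 steroid and related nuclear receptors 2 were higher and 7 were lower (the higher count was 1 without naive PFC array 5 or naive striatum array 1 or 2), with Nr2f1, a factor of cortical patterning, lower by -1.58 ± 0.08.

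Transcription factors of subpallial neurons had a median difference of 1.668 over 14 tested genes, of which 11 were higher, 1 was lower and 2 did not pass. Foxp2 was 11.06 to 11.38 in striatum and 8.87 to 9.39 in PFC (2.12 ± 0.07). Pbx3 (2.18 ± 0.08), Ebf1 (2.13 ± 0.09), Zfp503 (1.82 ± 0.1), Meis1 (1.78 ± 0.07) and Bcl11b (1.76 ± 0.08), were separated in the same way. All these are known from the development or upkeep of striatal neurons. Hopx was the lower member (-0.74 ± 0.1). Without pretreated striatum array 2 a further member passed as lower, 2 in all.

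Cortical transcription factors mostly ran the other way, with 16 of 25 lower, 5 higher and 4 not passing. Neurod2 was 5.9 to 7.81 in striatum and 9.24 to 9.8 in PFC. Fezf2, a factor of deep-layer projection neurons, was lower by -2.6 ± 0.15 and Cux2, of upper layers, by -2.32 ± 0.13 (-2.87 on naive arrays 1 to 3 and -1.86 on arrays 4 and 5). The 5 higher members were Pou3f1 (1.21 ± 0.09), Cux1 (0.74 ± 0.1), Tle4 (0.71 ± 0.08), Lmo3 (0.54 ± 0.06) and Mef2a (0.35 ± 0.07); another probe set of Cux1 gave 0.14 ± 0.1 and did not pass. Factors used as layer markers inside cortex were thus found on both sides of the regional comparison.

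Since several NeuroD-type factors were lower in striatum, and since cyclic AMP genes stood out, RefSeq promoters (rat GRCr8) were searched for the letters of the E-box that NeuroD factors bind, CAGATG, and of the cyclic AMP response element, TGACGTCA, on both strands of the 250 bases before each start. Promoters were matched by symbol for 7170 of 8531 tested genes. The stretches shown are examples, picked after matches were seen from genes described in the text, with the motif in capitals, each 5′ to 3′ along its gene's strand. The E-box stretches were in Neurod6 at chr4:86180240-86180289 (minus strand), Neurod2 at chr10:83824368-83824417 (minus), Rarb at chr15:11336177-11336226 (plus) and Rasgrp2 at chr1:213136690-213136733 (plus). The response element stretches were in Neurod6 at chr4:86180179-86180230 (minus), Hs3st2 at chr1:185387378-185387429 (plus) and Syn1 at chrX:3725533-3725584 (plus). Neurod6 had 2 E-box matches, and the one not marked stands in lower case in its response element stretch.
Neurod6, E-box: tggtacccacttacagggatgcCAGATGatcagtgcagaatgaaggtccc
Neurod2, E-box: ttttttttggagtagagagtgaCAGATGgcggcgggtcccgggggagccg
Rarb, E-box: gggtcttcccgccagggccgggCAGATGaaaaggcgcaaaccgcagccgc
Rasgrp2, E-box: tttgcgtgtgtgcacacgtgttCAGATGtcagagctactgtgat
Neurod6, response element: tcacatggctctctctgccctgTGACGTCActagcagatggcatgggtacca
Hs3st2, response element: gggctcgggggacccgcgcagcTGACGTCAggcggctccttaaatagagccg
Syn1, response element: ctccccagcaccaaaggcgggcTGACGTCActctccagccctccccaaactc
The E-box was present in 9.05% of promoters of genes lower in striatum, 8.05% of those higher, 8.6% of tested genes that did not pass and 13.68% of all promoters. The response element was present in 3.3%, 2.22%, 3.53% and 1.7%. Neurod6 and Neurod2 were lower in striatum and Rarb and Rasgrp2 higher, so the same E-box letters stood before genes of both directions. The response element examples shown were all of genes lower in striatum, but the element stood before 41 higher genes as well as 54 lower ones. A match of letters is no measured binding.

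Synaptic organisers are the adhesion proteins and secreted bridges that pair pre- and postsynaptic sides. Of 28 synaptic organisers 16 were lower and 4 were higher. The pentraxin receptor Nptxr, which gathers AMPA receptors with its secreted partner Nptx1, was 8.57 to 9.82 in striatum and 11.75 to 12.25 in PFC (-2.74 ± 0.15). Nptx1 itself differed by -2.38 ± 0.17 and Slitrk1 by -1.64 ± 0.08 (-1.08 ± 0.12 on another probe set). Flrt3, a latrophilin ligand, had the largest excess (0.97 ± 0.08).

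Of 36 guidance ligands and receptors 21 were lower and 8 were higher. Ntn1, the secreted cue netrin-1, was higher in striatum (8.57 to 9.16 against 7.15 to 7.62; 1.49 ± 0.1), as were the semaphorin receptor Plxnd1 (0.98 ± 0.15), Ephb1 (0.88 ± 0.07) and the ephrin Efnb3 (0.8 ± 0.09). On the lower side were Lingo1, a partner of the Nogo receptor (-1.96 ± 0.09), Ephb6 (-1.96 ± 0.09), Epha5 (-1.89 ± 0.16), Sema3c (-1.63 ± 0.12) and Slit2 (-1.27 ± 0.11). Of 15 cadherins and protocadherins, homophilic adhesion proteins, 5 were higher and 8 were lower. Cdh8 differed by 1.21 ± 0.1 and Cdh12 by -1.86 ± 0.17. Of 23 extracellular matrix genes 5 were higher, 7 were lower and 11 did not pass, shares near those of all genes. Without naive striatum array 4 the higher count was 8. The link protein Hapln4, of perineuronal nets, differed by -1.63 ± 0.13 and syndecan Sdc2 by 0.84 ± 0.07 (0.51 ± 0.14 on another probe set).

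In the vesicle release machinery 18 of 28 tested genes were lower, 2 were higher and 8 did not pass, with a median of -0.553, and the list includes vesicular transporters of cortical neurons. Syntaxin Stx1a, a core fusion protein, was 6.83 to 7.88 in striatum and 9.25 to 10.55 in PFC. Synapsins Syn1 (-1.7 ± 0.1, and -0.75 ± 0.2 on another probe set) and Syn2 (-1.27 ± 0.09), which tether vesicles, and Syt17 (-2.82 ± 0.12) were lower. The exception of size was Unc13c, a priming factor, at 10.52 to 11.08 in striatum and 8.73 to 9.11 in PFC (1.79 ± 0.08). Cplx2, a complexin, was higher by 0.31 ± 0.09.

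Of 20 postsynaptic scaffold genes 9 were higher, 7 were lower and 4 did not pass. Shank3 (0.94 ± 0.12) and its partner Dlgap3 (1 ± 0.1), were higher. Shank1 (-1.76 ± 0.1, and -0.94 ± 0.12 on another probe set), Shank2 (-0.56 ± 0.07) and Dlgap1 (-1.54 ± 0.09) were lower. Homer1 did not pass on the probe set used (0.14 ± 0.07), and other probe sets of it gave -1.1 ± 0.19 and -0.83 ± 0.23. Of 15 glutamate receptor genes 4 were higher and 4 were lower, a share near that of all genes: the kainate subunit Grik2 differed by 1.09 ± 0.1, the metabotropic receptors Grm5 and Grm4 by 0.93 ± 0.13 and 0.82 ± 0.09, and the subunits Grin2a and Gria3 by -1.1 ± 0.15 and -0.78 ± 0.08.

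Of 32 potassium channel genes 9 were higher, a share near that of all genes, and 16 were lower. Among the higher ones Kcna4, a channel of fast-inactivating A-type current, was 10.77 to 11.38 in striatum and 9.02 to 9.82 in PFC, and Kcnab1 (1.68 ± 0.09), Kcnip2 (1.32 ± 0.11) and Kcnd2 (0.83 ± 0.08), which form or modulate such currents, were higher too. Kcna5 (1.81 ± 0.11) and the background leak channel Kcnk2 (1.39 ± 0.07) were higher as well. The lower group held channels of the fast-spiking type, Kcnc1 (-0.83 ± 0.11), Kcnc2 (-1.54 ± 0.21, with -1.78 on naive arrays 1 to 3 and -1.11 on arrays 4 and 5) and Kcnc4 (-1.12 ± 0.09), with Kcns3 (-2.72 ± 0.26). The family of Kcnip2 went both ways: of 4 tested members Kcnip2 was higher, Kcnip3 and Kcnip4 (-0.97 ± 0.09) were lower and 1 did not pass. Of 17 sodium, calcium and HCN channel genes 8 were higher and 6 were lower, among them the T-type calcium channel Cacna1h (1.35 ± 0.11) and the N-type Cacna1b (-0.8 ± 0.1).

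GABA genes were higher in striatum for synthesis and loading and mixed for receptors. Slc32a1, the vesicular GABA transporter, was 10.71 to 11.26 in striatum and 9.24 to 9.71 in PFC (1.53 ± 0.07). The synthetic enzymes Gad2 and Gad1 differed by 1.34 ± 0.18 and 0.85 ± 0.07, and Gad2 by 1.62 on naive arrays 1 to 3 and 0.54 on arrays 4 and 5. Among receptors Gabra5 (-1.54 ± 0.11) and Gabbr2 (-1.78 ± 0.1) were lower, and Gabbr1 had 0.35 ± 0.08 on the probe set used but -0.51 ± 0.06 on another. Over the whole list of 13, 7 were higher and 4 were lower.

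The choline transporter Slc5a7, a marker of cholinergic terminals and cell bodies, was 9.73 to 10.66 in striatum and 6.64 to 7.52 in PFC (3.1 ± 0.13). The muscarinic receptor Chrm3 was lower by -1.39 ± 0.12 and the nicotinic receptor modulator Lynx1 by -0.84 ± 0.09. Only these 3 of 19 cholinergic genes on the array were tested, 1 higher and 2 lower. The rest fell below the signal filter, among them Chat, Slc18a3 and the muscarinic receptors Chrm1, Chrm2, Chrm4 and Chrm5. The tested genes thus do not describe cholinergic genes as a whole. Adra2c, an adrenergic receptor, differed by 1.9 ± 0.14 and the serotonin receptor Htr2c by 1.51 ± 0.09, whereas Adra1b differed by -2.1 ± 0.17. Markers of interneurons were lower where they passed, in 7 of 11, with 0 higher: parvalbumin (Pvalb) was 6.67 to 8.77 in striatum and 9.68 to 10.02 in PFC, with differences of -2.8 on naive arrays 1 to 3 and -1.44 on arrays 4 and 5.

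Of 20 neuropeptide precursor genes 7 were higher and 9 were lower. The largest difference on the striatal side was that of Nts, at 9.38 to 10.14 in striatum and 4.77 to 7.13 in PFC (3.93 ± 0.27). The opioid and tachykinin precursors were on the same side, and so was Cartpt (1.37 ± 0.21; 0.55 on naive arrays 1 to 3 and 2.16 on arrays 4 and 5). The largest on the cortical side was that of Vip, at 6.82 to 8.64 in striatum and 11.04 to 11.41 in PFC (-3.67 ± 0.22), with -4.3 on naive arrays 1 to 3 and -2.81 on arrays 4 and 5. Cck was 9.64 to 11.64 in striatum and 13.2 to 13.7 in PFC, with -2.99 and -1.78 on these sets, and Nxph3 differed by -2.3 ± 0.17, with -2.67 and -1.68. Grp was 6.01 to 6.88 in striatum and 9.3 to 9.85 in PFC. Of 16 peptide and orphan receptors 8 were higher, led by Gpr149 (2.19 ± 0.11) and Gpr161 (1.3 ± 0.12), and 6 were lower. Somatostatin receptor Sstr1 (7.11 to 7.98 against 10.09 to 10.45), Vipr1 (-1.79 ± 0.14), Npy1r (-1.67 ± 0.13) and the nociceptin receptor Oprl1 (-1.62 ± 0.19) were the lower ones of largest size. The PACAP receptor Adcyap1r1 was higher by 0.55 ± 0.08, opposite in sign to its ligand's gene.

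Activity-regulated genes were lower in 12 of 28 and higher in 2, in animals given no stimulant; the higher count was 1 without any of naive PFC arrays 1, 2 and 5, naive striatum array 4, pretreated PFC array 3 and pretreated striatum arrays 1 and 3. Ier5 was 9.52 to 9.74 in striatum and 10.69 to 11.35 in PFC, and Klf6 (-1.44 ± 0.14), Ptgs2 (-1.32 ± 0.18), Klf10 (-1.18 ± 0.1) and Nr4a3 (-1 ± 0.14) were lower. On naive arrays 1 to 3 and on arrays 4 and 5 Klf6 differed by -1.64 and -0.95 and Nr4a3 by -0.94 and -0.58. Inhba, an activin subunit, was higher (0.93 ± 0.1), as was the activin-type receptor Acvr1c (2.1 ± 0.13; 2.54 and 1.65 on these sets). Among 31 growth factor genes 7 were higher and 9 were lower, shares near those of all genes, with Tgfa at 1.39 ± 0.09 and the GDNF-family receptor Gfra2 at -2.31 ± 0.11. In the Wnt list of 9, 5 were higher (3 without naive PFC array 3) and 2 were lower: the receptor Fzd8 differed by 1.23 ± 0.12 and the secreted Dkk3 by -1.91 ± 0.12.

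**Figure D3:**
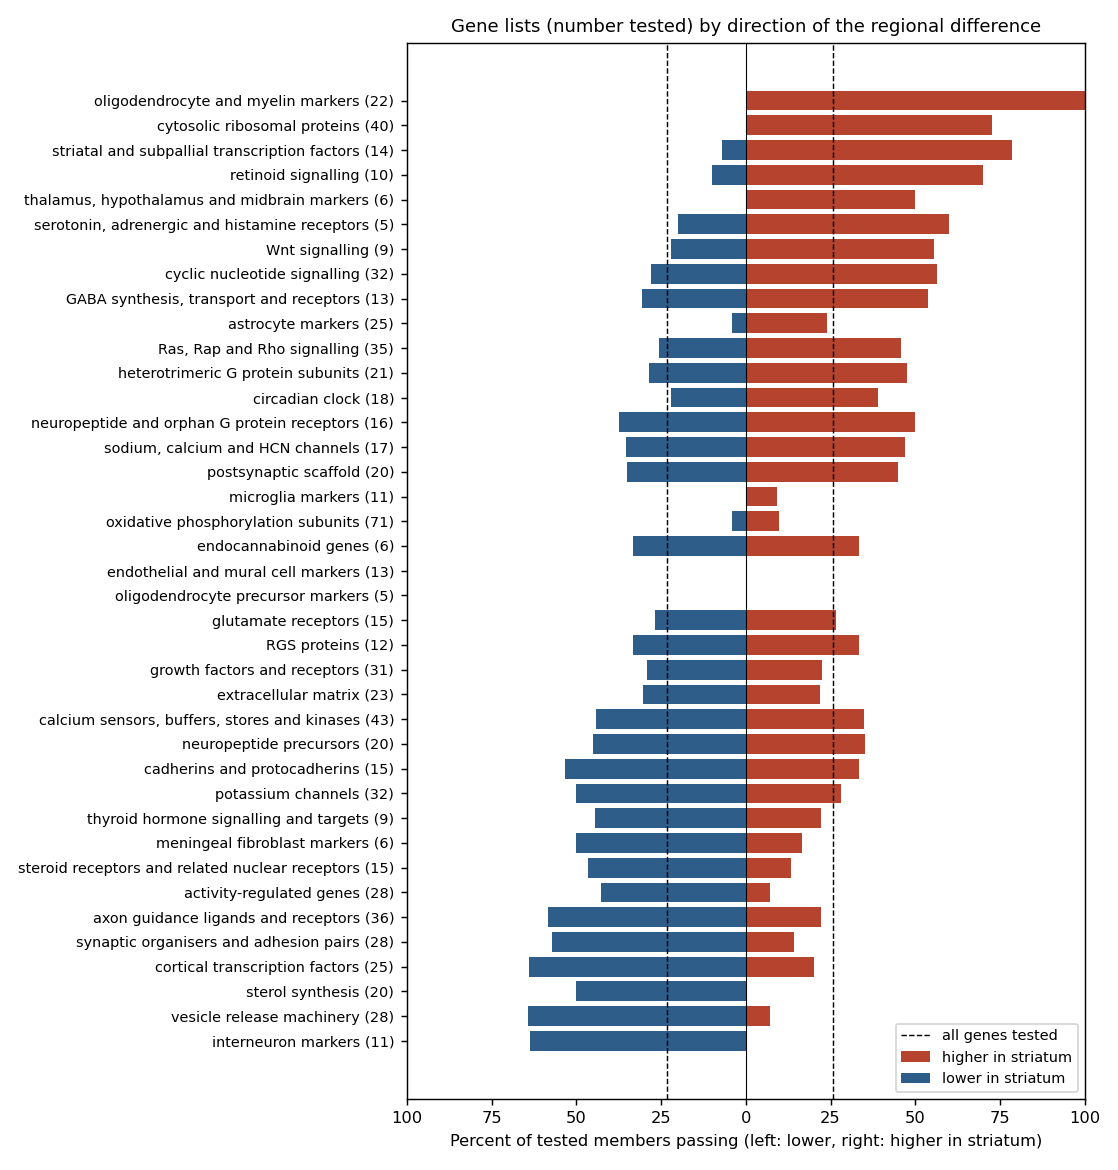
Share of each list's tested genes (number in brackets) that passed as higher (red, to the right) or lower in striatum (blue, to the left), in percent; dashed lines mark all tested genes, 25.7% higher and 23.3% lower. Myelin, ribosomal and striatal transcription factor lists extend furthest to the right, and vesicle release, interneuron and cortical transcription factor lists to the left.

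Every tested marker of mature oligodendrocytes, the cells that form myelin, was higher in striatum. All 22 of 22 passed with a median of 0.53. Mean log2 signal over the list was 11.44 to 11.87 on the striatum arrays and 10.86 to 11.28 on the PFC arrays, with no overlap. Ugt8, which makes the myelin lipid galactosylceramide, differed by 1.07 ± 0.2, Ermn by 0.74 ± 0.08 and Aspa, which degrades N-acetylaspartate, by 0.67 ± 0.09. The list's median was 0.62 and 0.63 in the naive sets of high and low BioB signal and 0.38 in the pretreated cohort, with 22 of 22 above 0 in each. In the naive cohort alone 21 of 22 passed and in the pretreated cohort alone 8 of 22. For the difference between cohorts 5 of 22 reached an unadjusted p under 0.05 in limma and 0 passed after adjustment.

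Fewer markers of other glia and of vessels passed. Of 5 oligodendrocyte precursor markers 0 passed in limma, with 2 at an unadjusted p under 0.05, and 2 passed without naive PFC array 1, naive PFC array 2 or naive striatum array 4, and 1 without pretreated PFC array 1. Of 13 endothelial and mural cell markers 0 passed, with 0 at an unadjusted p under 0.05; 1 passed without naive striatum array 1 and 2 without naive striatum array 4. Of 25 astrocyte markers 6 were higher and 1 was lower, and the higher count ran from 3 to 9 as single arrays were left out; without naive striatum array 3 it was 3. Vim was among them (0.75 ± 0.09). Of 11 microglia markers 1 was higher, Ctss (0.25 ± 0.08); 2 were without naive PFC array 1 or naive striatum array 5, and 3 without pretreated PFC array 1. The means of these lists overlapped between regions, for example 9.56 to 10.03 in striatum and 9.3 to 10.07 in PFC for microglia.

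Markers of neighbouring tissue moved with some arrays. Ttr, the transport protein made mainly by choroid plexus, was 9.03, 10.69, 10.07, 10.91 and 10.87 on the naive striatum arrays and 10.6, 10.72 and 9.36 on the pretreated ones, against 7.51 to 9.05 in PFC (1.89 ± 0.26). Of 10 choroid plexus and ependyma markers on the array only Ttr was tested, as the rest fell below the signal filter, so choroid plexus tissue rests on 1 gene here. On the fifth naive striatum array genes of thalamus were high: Slc17a6, the vesicular glutamate transporter of thalamic neurons, was 10.63 there and 6.82 to 8.48 on the other striatum arrays, and Tcf7l2 was 11.31 against 9.48 to 9.94. PFC arrays had 8.63 to 8.97 for Slc17a6. Slc17a6, chosen here after its values were seen, differed by -0.71 ± 0.36 with that array (adjusted p = 0.112) and by -1.11 ± 0.16 without it (adjusted p = 8.82e-06), so that its call depended on that array; Tcf7l2 went from 0.5 ± 0.18 to 0.3 ± 0.09 and still passed. The part of such tissue in other results was not tested beyond the counts without that array given above. The thalamus list, which takes in hypothalamus and midbrain, had 3 of 6 higher and 0 lower with that array, and 1 lower without it. Of 6 meningeal fibroblast genes 1 was higher and 3 were lower. The lower count ran from 2 to 3 as single arrays were left out, and the lower member Ptgds lost its call in 12 of those fits. In the pretreated cohort alone 0 of the 6 passed in limma, with 1 at an unadjusted p under 0.05, and in the naive cohort alone 3 passed.

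Of 40 tested ribosomal protein genes 29 were higher and 0 were lower, with a median of 0.227. The median was 0.32 on naive arrays 1 to 3, 0.38 on naive arrays 4 and 5 and 0.04 in the pretreated cohort, and 40, 40 and 28 of the 40 genes were above 0. In the pretreated cohort alone 0 of 40 passed in limma, with 1 at an unadjusted p under 0.05, while 36 passed in the naive cohort alone. Mean log2 signal over the list was 13.47 to 13.8 in naive striatum and 13.13 to 13.48 in naive PFC, but 13.45 to 13.64 and 13.39 to 13.61 in the pretreated cohort, where the regions overlapped. Of the 40 genes 19 reached an unadjusted p under 0.05 in limma for the difference between cohorts and 0 passed after adjustment. The count higher fell to 20 of 40 without naive PFC array 5 or without naive striatum array 1, and under quantile normalisation it was 24 of 40 with a median of 0.155. Of 71 subunits of oxidative phosphorylation 7 were higher and 3 were lower, below the shares of all genes; as single arrays were left out the counts ran from 4 (without naive PFC array 5 or naive striatum array 1) to 15 higher (without pretreated PFC array 1) and from 2 to 8 lower (8 without naive striatum array 1). The median of these 71 genes was 0.09 on naive arrays 1 to 3, 0.1 on naive arrays 4 and 5 and -0.09 in the pretreated cohort, with 45, 53 and 14 of 71 above 0. In the naive cohort alone 18 passed and in the pretreated cohort alone 4, and for the difference between cohorts 13 reached an unadjusted p under 0.05 in limma and 0 passed after adjustment.

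**Figure D4:**
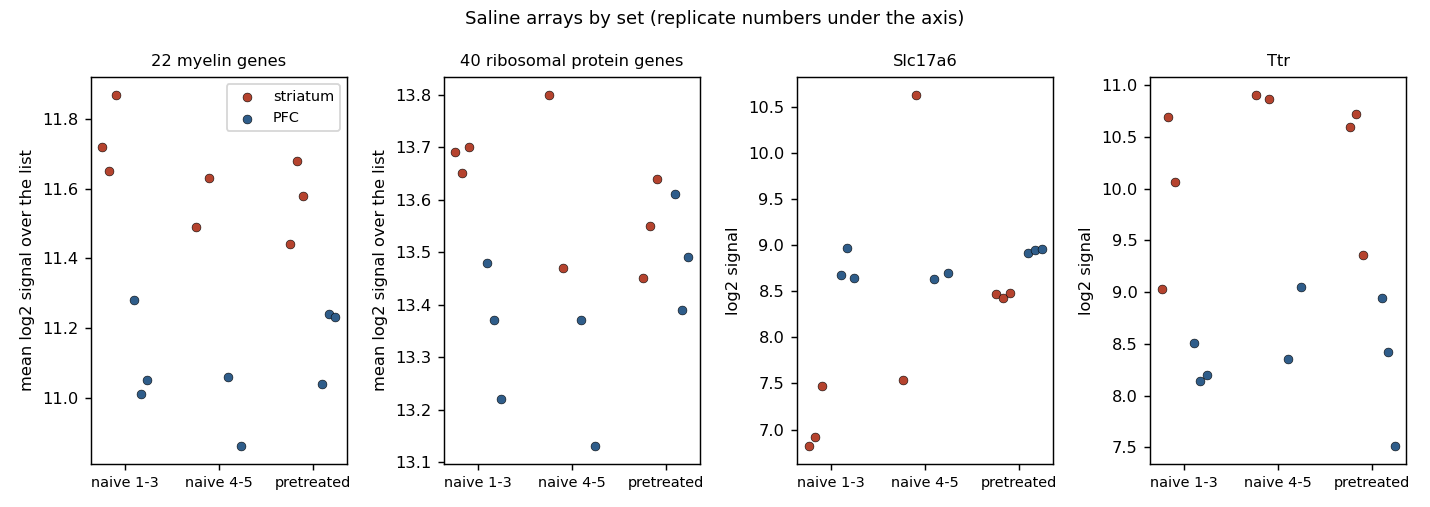
Mean log2 signal over 22 myelin genes and 40 ribosomal protein genes, and log2 signal of Slc17a6 and Ttr, on each saline array (striatum red, PFC blue) by array set. Myelin genes are separated in all sets, ribosomal genes overlap in the pretreated cohort, and 1 striatum array at 10.63 stands apart in Slc17a6.

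Smaller lists closed the survey. Of 18 clock genes 7 were higher and 4 were lower, led by Cry1 (0.96 ± 0.12), a repressor, and Bhlhe40 (-1.16 ± 0.11), also a repressor. Of 20 sterol synthesis genes 10 were lower and 0 higher (0 also at an unadjusted p under 0.05 in limma), with a median of -0.213. Among 6 endocannabinoid genes 2 were higher and 2 were lower, with the receptor Cnr1 at 0.42 ± 0.09 (0.95 ± 0.16 on another probe set).

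The regional differences of the cohorts were then set against each other; they share no array. In the naive cohort 3460 genes passed (40.6%) and in the pretreated cohort 2259 (26.5%), with a median SE of 0.107 and 0.139. Both cohorts called 1894 genes in the same direction, which is 54.7% of the naive calls and 83.8% of the pretreated calls. Of the naive calls 3316 (95.8%) had the same sign in the pretreated cohort, and of the pretreated calls 2222 (98.4%) had the same sign in the naive cohort, against 79.5% of all genes. All 483 genes with a naive difference of 1 or more in size had the same sign in the pretreated cohort and 479 of them passed there. All 121 genes at 2 or more in size passed there as well, with the same sign. Across genes, which are not independent replicates, the differences correlated at 0.923.

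The medians of single programmes in the 3 array sets were -0.5, -0.6 and -0.44 for vesicle release in naive arrays 4 and 5, naive arrays 1 to 3 and the pretreated cohort, 1.67, 1.64 and 1.72 for striatal transcription factors, and 0.3, 0.32 and 0.33 for cyclic nucleotide genes. Others were smaller in size in the pretreated cohort: -0.34, -0.5 and -0.14 for guidance genes and -0.55, -0.4 and -0.15 for cadherins and protocadherins. Synaptic organisers had -0.39, -0.34 and -0.17. For the difference between cohorts 8 of 36 guidance genes, 2 of 15 cadherins and protocadherins and 7 of 28 organisers reached an unadjusted p under 0.05 in limma. That share was 6.83% over all genes, and 0 in these lists passed after adjustment. Among genes, Coch differed by 2.89 in the naive and 3.55 in the pretreated cohort, Rem2 by 3.62 and 2.95, and Rasgrp2 by 3.61 and 3.62. Over the genes called in the naive cohort the median ratio of the pretreated to the naive difference was 0.849, and over those called in the pretreated cohort the ratio of naive to pretreated was 0.905.

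**Figure D5:**
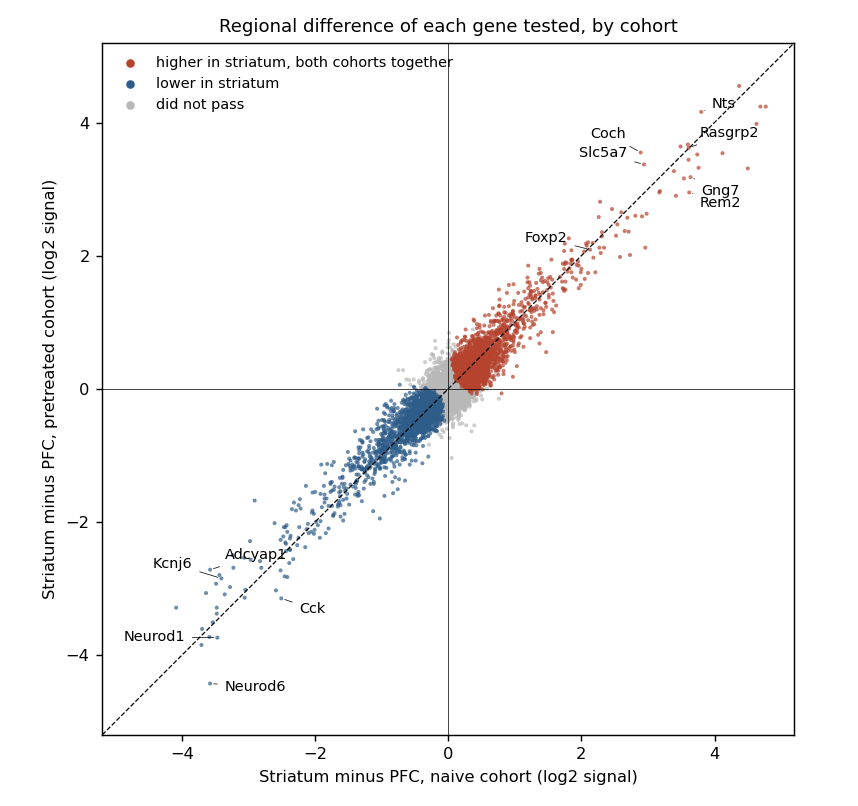
Difference striatum minus PFC (log2 signal) of 8531 genes in the naive cohort (horizontal) and the pretreated cohort (vertical), coloured by the call with both cohorts together; the dashed line marks equality. Genes with large differences lie near the line, with a correlation of 0.923 across genes.

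The test of the difference between cohorts passed in 0 of 8531 genes (0%) in limma, with 583 genes (6.83%) at an unadjusted p under 0.05 and a smallest adjusted p of 0.707. The alternatives run for this test gave 0 as well, except that 1 gene passed without naive striatum array 5. That gene was Calr, an endoplasmic reticulum chaperone, which also was the 1 gene called in opposite directions by the cohorts: 0.35 ± 0.13 in the naive and -0.64 ± 0.17 in the pretreated cohort. Within the naive cohort its difference was 0.67 on arrays 1 to 3 and -0.13 on arrays 4 and 5.

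The 47 arrays of stimulant-treated rats gave a comparison of the regions on arrays that the choice of groups did not use. Among them, array 1 of naive striatum after methamphetamine at 1.25 mg/kg had a striatal marker mean of 8.62 and a cortical one of 10.4. Both lay within the ranges of the saline PFC arrays (8.04 to 9.14 and 10.15 to 10.59). By its label it was kept as striatum in the values below, and the reason for its profile was not tested. On these 47 arrays 5561 genes passed (65.2%). Of the 4175 saline calls 4160 had the same sign and 3917 passed in the same direction, which is 93.8% of the saline calls and 70.4% of the stimulant-array calls, and 0 passed in the opposite direction. The differences correlated at 0.975 across genes, and the median ratio of the stimulant-array to the saline difference over saline calls was 0.848. That ratio covers genes picked by their saline call, and it takes in the array with markers in the PFC range. It therefore does not measure a change of the regional difference with stimulants. The myelin list was above 0 in 22 of 22 genes there, the retinoid list had a median of 0.72 against 0.781 in saline, and the ribosomal list a median of 0.18.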

How the data were processed

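The deposited values are MAS5 signals, a linear intensity per probe set of an Affymetrix rat array, per the submitters' processing notes; all arrays have the same trimmed mean, 500.2. Each of 31099 probe sets was named from the platform annotation: 20832 had 1 symbol, 436 several and 9831 none, and the last 2 kinds were left out. A gene was represented by its probe set with the highest mean signal over the saline arrays, signals under 1 (0.974% of saline values) were set to 1, log2 was taken, and the lowest 40% of 14218 genes by mean were left out, which left 8531. Values of different probe sets were not compared in level, and the number of arrays limits the precision.

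Differences were fitted in limma 3.58.1 (R 4.3.3; lmFit, contrasts.fit and eBayes with trend, 13 residual degrees of freedom) on region and cohort over 16 saline arrays. Values per cohort, and their difference, came from a fit of 4 group means, and the stimulant comparison from 47 other arrays, as the unweighted mean over their groups. A gene passed at a Benjamini-Hochberg adjusted p under 0.05, taken over all 8531. Tables were handled in Python 3.11.15 with pandas 2.3.3 and numpy 2.4.6. Tested on simulated data of this comparison (8531 genes), the fit recovered 86% of genes changed by 0.5, 100% of those changed by 1 or by 2 and 98% of those changed by -1, with 14 unchanged genes called.

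The comparison, gene lists and tests were chosen with earlier results of these data known, so counts over lists are descriptions. The text draws its names from the 15 genes of largest difference each way whose arrays do not overlap within a cohort, with genes known from earlier results to lead the contrast left out; the 5 of smallest p each way among the same; up to 6 per list and direction; members of families split in direction; genes passing between cohorts; and the marker lists used to check tissue. Others are said to be chosen after their values were seen.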

Additional observations from a re-analysis of the deposited data

Results flagged for a closer look

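In 738 groups of 5 naive arrays of a named gene, the highest or lowest array stood far from the other 4 in 36 (4.9%), where chance gives about 1 in 20 groups; the values are log2 signals. The farthest apart were on striatum array 5, with Tcf7l2 at 11.31 (nearest other 9.87) and Prkcd at 9.76 (nearest other 8.4), both markers of thalamus. The same array was the lowest for Tmem212 at 8.95 (nearest other 9.55) and for Arhgap6 at 9.5 (nearest other 10), and the highest for Gabrb2 at 11.47 (nearest other 11.21).

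Naive striatum array 1 was the highest for Gucy1a1 at 12.59 (nearest other 12.23), Gpr149 at 9.53 (nearest other 9.23) and Dgkb at 13.12 (nearest other 12.79). Naive striatum array 4 was the highest for Stx1a at 7.88 (nearest other 7.52). Naive striatum array 1 was the lowest for Aldh1a1 at 9.29 (nearest other 9.77) and Gpr161 at 7.92 (nearest other 8.25). Naive striatum array 2 was the lowest for Pou3f1 at 10.21 (nearest other 10.5). Naive striatum array 3 was the lowest for Hs3st2 at 6.41 (nearest other 7.58), Ebf1 at 8.97 (nearest other 9.11), Cacna2d1 at 9.93 (nearest other 10.29) and Grm5 at 10.16 (nearest other 10.88). Naive striatum array 4 was the lowest for Nxph1 at 9.29 (nearest other 9.71). Naive PFC array 1 was the highest for Tmem212 at 7.19 (nearest other 6.49), Efnb3 at 9.8 (nearest other 9.41) and Stx1a at 10.55 (nearest other 9.95). Naive PFC array 2 was the highest for Hapln4 at 9.54 (nearest other 9.31) and Grik4 at 8.12 (nearest other 7.99). Naive PFC array 3 was the highest for Patj at 6.95 (nearest other 6.32), Strn at 11.05 (nearest other 10.8), Syn2 at 11.26 (nearest other 10.97) and Dusp14 at 11.11 (nearest other 10.73). Naive PFC array 4 was the highest for Rgs10 at 12.06 (nearest other 11.73) and Lmo4 at 14.1 (nearest other 13.9). Naive PFC array 5 was the highest for Rnd1 at 10.23 (nearest other 9.57). Naive PFC array 1 was the lowest for Esrrg at 9.47 (nearest other 9.98) and Plxna2 at 8.88 (nearest other 9.18). Naive PFC array 2 was the lowest for Ccn3 at 9.62 (nearest other 10.04), Arpp21 at 12.39 (nearest other 12.61) and Kcnj4 at 8.5 (nearest other 9.32). Naive PFC array 5 was the lowest for Rtn4r at 9.54 (nearest other 9.78) and Lum at 7.2 (nearest other 7.94).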

How the results depend on the processing

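The alternatives were quantile normalisation, a constant of 21.5 added to the signal in place of the floor, no filter or the lowest 60% left out, every probe set or the mean of a gene's probe sets, no trend in eBayes, another block or none, single sets of naive arrays, and leaving out each array. The 2190 genes higher and 1985 lower became 2009 to 2233 and 1893 to 2000 with 1 array left out, 1037 and 1026 with only naive arrays 4 and 5 (2 per region), and 2655 and 2349 with no filter. The share of calls that were higher ran from 50.3% to 54.0%. Between cohorts 1 gene, Calr (-1.11 ± 0.17, limma adjusted p = 0.0314), passed without naive striatum array 5. Of 10187 gene values under alternatives 9798 kept direction and call, 348 lost the call, 34 gained it and 7 turned: Gabbr1 -0.11, Ctnnb1 -0.02 and Homer1 -0.31 with the mean of probe sets, Nr1d2 at -0.0 on naive arrays 1 to 3, and Nr4a2 0.07, Nrxn3 -0.03 and Bmal1 -0.05 on naive arrays 4 and 5; for the last 4 the cause was not tested. Of 352 named genes that passed, 329 did so whichever array was left out and 249 under every alternative run, single array sets included.

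Replicate numbers were taken to pair the arrays only where every same-numbered pair of arrays correlated at over 0.1 in its deviations. Over both cohorts 1 pair, at 0.098, missed this. The pretreated pairs ran from there to 0.156, while all 5 naive pairs met the rule (0.234 to 0.538). Of 8 PFC arrays 6 correlated best with their own number, a hint from the data and not the design. The highest correlation with another number was 0.312 to 0.438 for naive PFC arrays and -0.04 to 0.004 for pretreated ones. In the naive cohort a cutoff of 0.1 thus cannot tell own from other numbers, so the rule does not decide whether the arrays are paired. With the replicate block 2478 genes were higher and 2224 lower, 2207 and 1908 in the naive cohort alone (1834 and 1626 without the block) and 1358 and 1462 in the pretreated cohort alone. With the array set as the block, which pairs no arrays, 2483 were higher and 2237 lower. The larger counts under the replicate block thus do not bear on pairing. Under the replicate block 3 of 5 oligodendrocyte precursor, 2 of 13 endothelial and 13 of 71 oxidative phosphorylation genes were higher. Files without detection calls were used, so low signals have no stated background.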

Other observations

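A few genes outside the rule for named genes were picked after their values were seen, as those with small p for the difference between cohorts; none of them passed after adjustment (limma adjusted p = 0.707 each). Pnck, a calcium/calmodulin-dependent kinase, was lower in striatum by -2.91 ± 0.19 in the naive and -1.68 ± 0.25 in the pretreated cohort. Msx1, a homeobox factor, was 1.47 ± 0.13 higher in the naive cohort and 0.55 ± 0.17 higher in the pretreated cohort. Dok5, a docking protein of receptor tyrosine kinases, differed by -0.76 ± 0.1 and -1.51 ± 0.13. Ntrk3, the receptor of neurotrophin NT-3, differed by -0.25 ± 0.11 and 0.52 ± 0.14.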
